A study of Mus musculus with 2 samples.

Results

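Transcripts of 9 genes that write, read or erase cytosine methylation were followed through nuclei of the mouse retina at postnatal day 21. The genes were Tet1, Tet2, Tet3, Tdg, Dnmt1, Dnmt3a, Mbd1, Mbd2 and Mbd3. Each was found by its symbol among the 32227 genes of the deposited gene table, and each symbol matched 1 row. They were chosen with earlier results of these data known. The data were 2 libraries of single-nucleus RNA-seq from whole retina, made with a 3′ kit for particle-templated partitions (PIPseq). One library came from control animals without Cre (Cre−, genotype labelled WT), bred from Cre− parents. The other came from Tet tcKO animals, in which floxed alleles of Tet1, Tet2 and Tet3 were deleted by a Chx10-Cre-GFP transgene. Both are labelled strain C57 BL/6J. Chx10 drives the transgene in retinal progenitor cells, and the study bred animals carrying Cre with one another to limit mosaic expression. Nuclei of 2 dissociation pools were used for each genotype, but the deposit holds 1 matrix per genotype and no nucleus carries a pool label. Each genotype was therefore 1 sample, no test between genotypes was possible, and every difference below lacks a replicate check. All intervals are exact, at 95%, and cover counting error only.

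Cytosine methylation in mammals is placed mostly at CpG dinucleotides. DNMT3A adds it to unmethylated DNA, and DNMT1 copies it to the new strand after replication. Proteins with a methyl-CpG-binding domain read the mark, and some of them recruit the NuRD complex, which remodels nucleosomes and removes acetyl groups from histones. TET enzymes oxidise 5-methylcytosine to 5-hydroxymethylcytosine and further forms, and thymine DNA glycosylase (TDG) cuts out the most oxidised forms so that base excision repair can restore a plain cytosine. Post-mitotic neurons are known for high levels of 5-hydroxymethylcytosine, and rod nuclei of the mouse are known for an inverted arrangement of heterochromatin.

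Promoter sequences of the 4 eraser genes are shown because 3 of them are the genes targeted in the Tet tcKO animals and the fourth, Tdg, had the largest difference between the libraries among the 9 genes over all nuclei. Each window runs from 250 bases before to 50 bases after a RefSeq transcription start (table build GRCm38.p6), is written 5′ to 3′ on the gene's strand, and carries every CpG in capitals.
Tet1: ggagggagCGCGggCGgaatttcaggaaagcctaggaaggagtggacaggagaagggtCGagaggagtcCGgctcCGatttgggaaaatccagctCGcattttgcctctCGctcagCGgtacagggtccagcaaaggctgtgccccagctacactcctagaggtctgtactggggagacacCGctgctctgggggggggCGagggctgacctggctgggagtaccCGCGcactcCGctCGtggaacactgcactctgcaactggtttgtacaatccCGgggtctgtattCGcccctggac
Tet2: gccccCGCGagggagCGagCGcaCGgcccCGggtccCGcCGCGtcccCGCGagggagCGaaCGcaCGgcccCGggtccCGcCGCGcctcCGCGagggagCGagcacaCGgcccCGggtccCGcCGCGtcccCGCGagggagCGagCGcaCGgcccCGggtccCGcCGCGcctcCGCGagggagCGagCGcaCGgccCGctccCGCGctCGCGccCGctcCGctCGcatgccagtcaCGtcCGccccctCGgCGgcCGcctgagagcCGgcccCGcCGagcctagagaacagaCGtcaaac
Tet3: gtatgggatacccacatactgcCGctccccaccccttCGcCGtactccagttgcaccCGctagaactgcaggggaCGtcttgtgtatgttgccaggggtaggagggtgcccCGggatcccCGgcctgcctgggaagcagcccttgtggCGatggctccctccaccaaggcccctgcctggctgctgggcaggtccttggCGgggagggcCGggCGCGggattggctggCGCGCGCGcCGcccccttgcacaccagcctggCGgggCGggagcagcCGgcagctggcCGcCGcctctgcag
Tdg: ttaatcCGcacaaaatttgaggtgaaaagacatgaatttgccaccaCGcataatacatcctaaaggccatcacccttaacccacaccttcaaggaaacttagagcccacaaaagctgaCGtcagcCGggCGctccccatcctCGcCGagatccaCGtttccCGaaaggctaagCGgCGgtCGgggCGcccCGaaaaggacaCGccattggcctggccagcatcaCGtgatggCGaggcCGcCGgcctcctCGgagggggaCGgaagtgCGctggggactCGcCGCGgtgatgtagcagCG
An exact match placed the Tet1 window at chr10:62723054-62723353 (minus strand), the Tet2 window at chr3:133250102-133250401 (minus strand), the Tet3 window at chr6:83418611-83418910 (minus strand) and the Tdg window at chr10:82465422-82465721 (plus strand) of GRCm39. The Tet1, Tet2 and Tet3 windows lie wholly inside the GENCODE M39 gene bodies, since those annotations begin at a more distant start. The motif searched was CG, which reads alike on both strands. The Tet2 window held 57 CpG, and 0.152% of the 32851 promoters in the table held as many. The Tdg window held 26 (16.9% held as many), the Tet3 window 22 (23.1%) and the Tet1 window 17 (31.4%), against a median of 7 over all promoters. These counts describe the sequence only, and methylation of these windows was not analysed here. The table held a promoter for 7 of the 9 genes.

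The 9 genes lie on 6 chromosomes of GRCm39. Tet1 occupies chr10:62640349-62744775, Tet2 chr3:133169436-133250900, Tet3 chr6:83339355-83436066 and Tdg chr10:82465610-82489654. Dnmt1 occupies chr9:20817945-20871184 and Dnmt3a chr12:3856007-3964443. Mbd1 occupies chr18:74400676-74415803, Mbd2 chr18:70701260-70762203 and Mbd3 chr10:80225002-80235397. UMIs (unique molecular identifiers, one per captured transcript) were deposited per whole gene. They do not tell exons within the floxed segments from exons outside them, so the levels of Tet1, Tet2 and Tet3 check neither the deletion nor the labels. Genes on the opposite strand overlap several of the 9, and the handling of strand and introns was not given in the sources used here. By UMIs, the largest such overlaps were Bola3 with Tet3 (244 UMIs in Cre− and 267 in Tet tcKO), Uqcc6 with Tdg (37 and 191) and Gm42567 with Tet2 (56 and 117). Processed pseudogenes of Tdg and Dnmt3a are annotated but are not rows of the gene table, so reads shared with them make the counts of both genes uncertain.

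The Cre− library held 7357 nuclei with 11510585 UMIs (median 1107 per nucleus), and the Tet tcKO library 6766 nuclei with 16590747 UMIs (median 1836.5). Mitochondrial genes took 5.47% of the Cre− UMIs and 1.76% of the Tet tcKO UMIs. Apart from 1 barcode sequence, the libraries shared none. The deposited annotation names 7 cell classes, and marker lists checked it among the leading genes of each cluster. Amacrine cells, retinal ganglion cells (RGCs) and horizontal cells passed, while rods, cones, bipolar cells and Müller glia each had at least 1 cluster in which another class's markers were the more numerous. Of the photoreceptors, 5214 Cre− nuclei were annotated as rods and 265 as cones, against 6 and 3225 in Tet tcKO. Summed levels of 11 rod markers were 9525 CPM (UMIs per 1000000 UMIs of the population) in the Cre− rods, 11951 in the Cre− cones and 5521 in the Tet tcKO cones. Those of 11 cone markers were 1765, 2072 and 6505 CPM. The Cre− nuclei annotated as cones thus carried more rod than cone marker UMIs, and they came from deeper nuclei (median 3736 UMIs). Rods and cones were therefore pooled as photoreceptors for comparisons between the libraries. As 1 class, 2 of the 24 photoreceptor clusters still failed the check, with the RGC markers Nefl or Sncg among their leading genes, and another was led by haemoglobin genes. Each ratio in photoreceptors was also computed without these 3 clusters, which held 991 of the 5479 Cre− and 1 of the 3231 Tet tcKO photoreceptors. Photoreceptors of the 2 libraries lie in different clusters, so library and cluster cannot be told apart there. Amacrine cells and RGCs, which passed, also held photoreceptor markers. In Cre− and Tet tcKO, rod markers summed to 1708 and 777 CPM in RGCs and to 2387 and 1133 CPM in amacrine cells. Cone markers summed to 556 and 1298 CPM in RGCs and to 845 and 2038 CPM in amacrine cells. The part of photoreceptor transcripts in the levels of these classes was not tested.

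Over all nuclei, the erasers differed among themselves. Tdg stood at 28.1 CPM in Cre− (323 UMIs) and 46.8 CPM in Tet tcKO (776 UMIs) (log2 ratio of Tet tcKO over Cre− 0.74, interval 0.55 to 0.93). Tet2 stood at 105 and 139 CPM (log2 ratio 0.41, interval 0.31 to 0.51). Tet1 stood at 50.2 and 61.2 CPM (log2 ratio 0.29, interval 0.14 to 0.44). Tet3 had 180.4 CPM in Cre− against 174 CPM in Tet tcKO, with an interval of the log2 ratio that held 0 (-0.14 to 0.03). None of the 3 floxed genes was 1.5-fold or more lower in the whole-gene counts of Tet tcKO. Of all genes, 11158 reached 10 CPM in one or both libraries. Their median log2 ratio was 0.15, and 92.4% of genes had a lower ratio than Tdg. Measured from that median, Tet2 stood at 0.27, Tet1 at 0.14 and Tet3 at -0.20 on the log2 scale. With every nucleus thinned to 500 UMIs in a single random draw, Tet1 stood at 0.73, past 1.5-fold. That draw left Tet1 in 145 Cre− and 221 Tet tcKO nuclei.

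**Figure D1:**
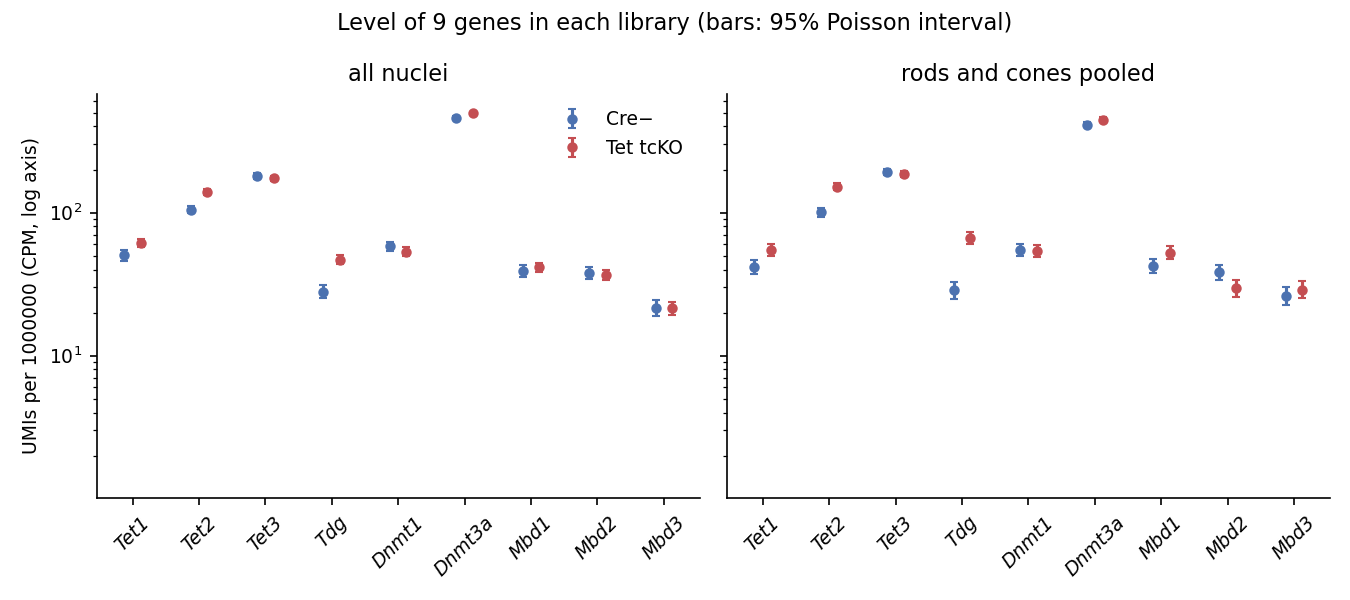
Level of the 9 genes in the Cre− library (blue) and the Tet tcKO library (red), over all nuclei on the left and over photoreceptors on the right, in CPM on a log axis. Points are library values and bars are 95% Poisson intervals. The bars of Tdg and Tet2 are apart between the libraries in both panels, at 28.1 against 46.8 CPM for Tdg over all nuclei.

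The writers were close to the median gene or below it. Dnmt3a had 461 CPM in Cre− against 495 CPM in Tet tcKO (log2 ratio 0.10, interval 0.05 to 0.15) from 5301 and 8211 UMIs, which became -0.11 with each gene counted once per nucleus. Dnmt1 had 58.1 and 53.4 CPM (log2 ratio -0.12, interval -0.27 to 0.02). Mbd1, which binds methylated DNA and also has CXXC zinc fingers, had 39.2 and 41.4 CPM. Mbd2, which recruits NuRD to methylated DNA, had 38.0 and 36.6 CPM. Mbd3, a NuRD subunit that binds methylated DNA poorly in mammals, had 21.6 and 21.5 CPM. The intervals of all 3 readers and of Dnmt1 held 0. In all, 1 of the 9 genes was 1.5-fold or more higher in Tet tcKO, against 12.9% of all genes at that level, and 0 were 1.5-fold or more lower, against 6.93%. The median log2 ratio of the 9 was 0.08, below that of all genes. Scaling moved the background. With TMM factors the median gene lay at 0.04 and the shares were 9.05% higher and 9.48% lower, and the log2 ratio of Tdg was 0.63.

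Within photoreceptors, the rods of dim-light vision and the cones of daylight vision, the ratio of Tdg was larger. Tdg had 28.6 CPM in 5479 Cre− photoreceptors and 66.5 CPM in 3231 Tet tcKO photoreceptors (log2 ratio 1.22, interval 0.98 to 1.45). Of 11377 genes, 417 had a higher ratio. Tet2 had 100.6 and 152 CPM (log2 ratio 0.59, interval 0.46 to 0.73). Tet1 had 41.8 and 54.8 CPM (log2 ratio 0.39, interval 0.17 to 0.61). Tet3 had 192 and 187 CPM, and its interval held 0 (-0.15 to 0.06). In the full counts, the order of the 4 erasers by ratio was Tdg, Tet2, Tet1 and Tet3 both here and over all nuclei. Among nuclei of 1000 to 2000 UMIs from all classes, Tet1 (0.42) stood level with Tet2 (0.41). After the single draw of thinning to 500 UMIs, Tet1 (1.03) stood above Tet2 (0.56) and level with Tdg (1.03) in photoreceptors. Over all nuclei Tet1 (0.73) and Tdg (0.72) then stood above Tet2 (0.45). In photoreceptors that draw left Tet1 in 88 Cre− and 105 Tet tcKO nuclei and Tdg in 82 and 98, so this order is uncertain. Without the 3 doubted clusters the log2 ratios were 1.23 for Tdg, 0.58 for Tet2, 0.41 for Tet1 and -0.09 for Tet3.

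Among the other genes in photoreceptors, Mbd2 was the lowest by ratio, with 38.1 CPM in Cre− against 29.6 CPM in Tet tcKO (log2 ratio -0.37, interval -0.63 to -0.11). Thinning to 500 UMIs gave -0.0496, from 86 Cre− and 49 Tet tcKO nuclei with a UMI. Mbd1 had 42.6 and 52.5 CPM (log2 ratio 0.30, interval 0.08 to 0.52). Dnmt3a had 412 and 447 CPM (log2 ratio 0.12, interval 0.05 to 0.19), and its sign turned with TMM factors (-0.0752). The intervals of Dnmt1 (-0.24 to 0.17) and Mbd3 (-0.14 to 0.43) held 0. The median log2 ratio over all genes in photoreceptors was 0.23. In photoreceptors 2 of the 9 genes, Tdg and Tet2, were 1.5-fold or more higher in Tet tcKO, against 22.9% of all genes. The thinned draw put Tet1 past that line as well (1.03), from the few nuclei given above. In the full counts 0 were 1.5-fold or more lower, against 7.1%. With TMM factors, which put the median gene at 0.04 and the shares at 13% higher and 12.1% lower, Tdg stood at 1.02 and Tet2 at 0.40, so that Tdg alone of the 9 stayed past 1.5-fold.

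**Figure D2:**
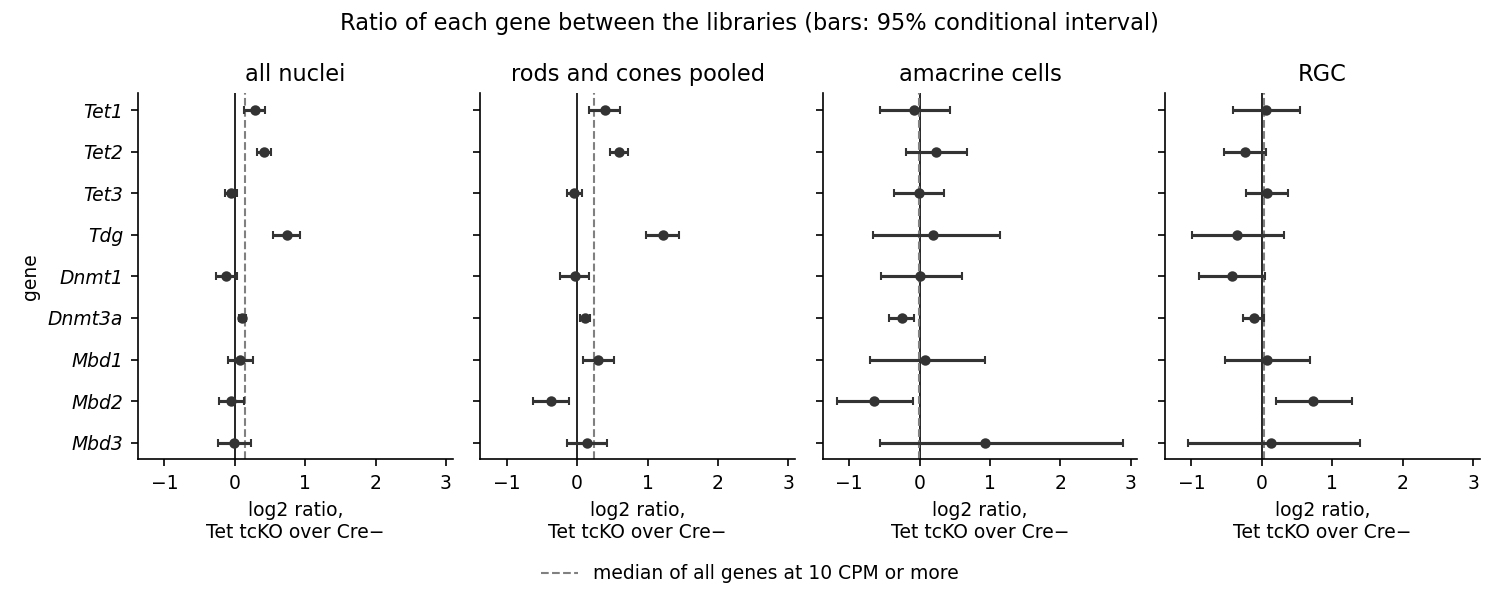
Log2 ratio of Tet tcKO over Cre− for each gene in all nuclei, photoreceptors, amacrine cells and RGCs. Points are ratios of CPM, bars are 95% conditional intervals, and dashed lines are the median of all genes at 10 CPM or more in that population. Tdg lies at 1.22 in photoreceptors and its bar crosses 0 in amacrine cells and RGCs.

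Uqcc6, which encodes an assembly factor of mitochondrial complex III, lies head to head with Tdg on the opposite strand of chromosome 10 and shares 487 bases with it. Over all nuclei its log2 ratio was 1.84 (interval 1.33 to 2.39). In photoreceptors it had 31 UMIs (4.09 CPM) in Cre− and 121 UMIs (16.3 CPM) in Tet tcKO (log2 ratio 2.00, interval 1.42 to 2.62). In amacrine cells, where the interval of Tdg held 0, Uqcc6 had 0 and 18 UMIs. In RGCs it had 3 and 11 UMIs (log2 ratio 1.08, interval -0.84 to 3.56), beside a log2 ratio of -0.35 for Tdg. Glt8d2, also on the opposite strand, shares 8972 bases at the 3′ end of Tdg. It had 1 UMI in Cre− and 9 in Tet tcKO over all nuclei, and 0 and 7 in photoreceptors. The part of reads shared with either gene in the result for Tdg was not tested.

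Depth of the nuclei differed between the libraries and was compared in photoreceptors. Among nuclei of 1000 up to 2000 UMIs (2205 Cre− and 1836 Tet tcKO), Tdg had 28.3 and 64.1 CPM (log2 ratio 1.18, interval 0.79 to 1.57). In nuclei of 2000 UMIs or more (799 and 1292) it had 24.9 and 68.3 CPM (log2 ratio 1.45, interval 1.06 to 1.86). Tet2 had ratios of 0.57 (0.35 to 0.80) and 0.53 (0.33 to 0.73) in the same depth ranges. The ratios of Tdg and Tet2 within a depth range thus lay near those over all photoreceptors. Tet1 was less even, at 0.51 (0.16 to 0.87) in the shallower range and 0.18 (-0.14 to 0.50) in the deeper one. Mbd2 was at -0.18 (-0.61 to 0.24) and -0.63 (-1.02 to -0.25), and Mbd1 at -0.06 (-0.44 to 0.32) and 0.43 (0.11 to 0.76). In the shallower range the intervals of Mbd2 and Mbd1 held 0, so neither had a clear direction there. Under 1000 UMIs the Tet tcKO library held 103 photoreceptors with 4 UMIs of Tdg among them.

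**Figure D3:**
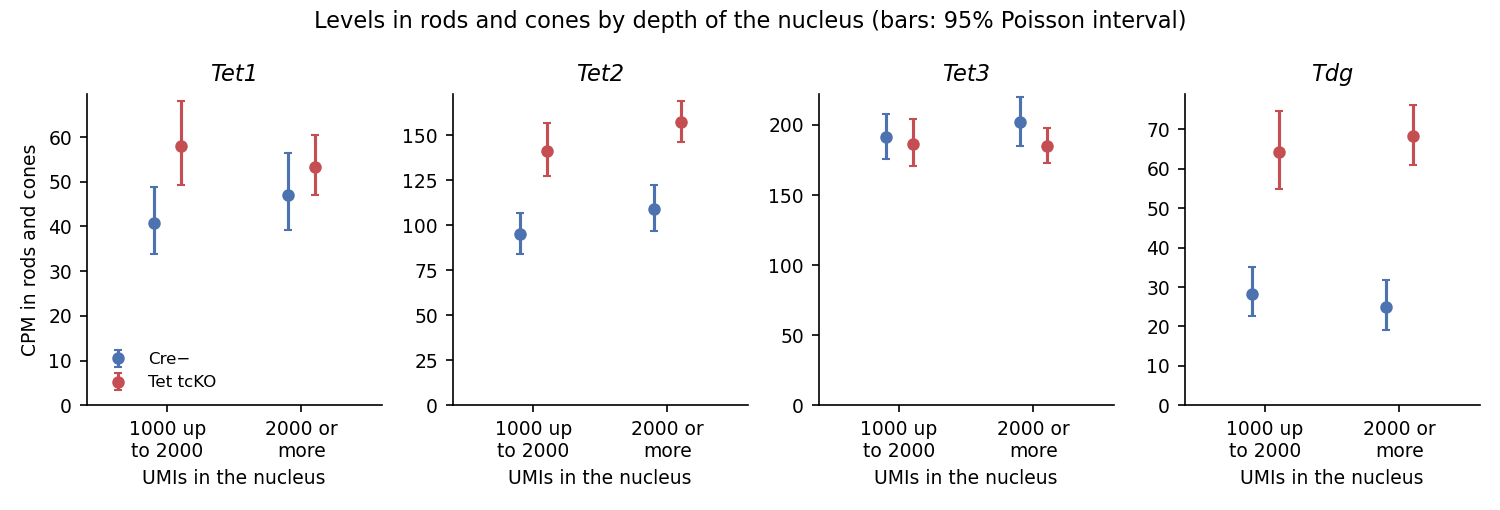
Level of Tet1, Tet2, Tet3 and Tdg in photoreceptors by depth of the nucleus, for Cre− (blue) and Tet tcKO (red), in CPM with 95% Poisson intervals. Tdg lies at 28.3 against 64.1 CPM in the shallower nuclei and at 24.9 against 68.3 CPM in the deeper ones.

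Within inner retinal neurons the ratios were smaller or less certain. Amacrine cells, inhibitory interneurons, numbered 403 in Cre− and 1043 in Tet tcKO. They lie largely in different clusters by library. Cluster 27 held 256 Cre− and 21 Tet tcKO nuclei, cluster 12 held 14 and 357, and cluster 24 held 35 and 321. Cluster 13 was shared, with 72 and 122, but levels within it were not compared. Over all amacrine cells, cluster and library therefore cannot be fully told apart. Tdg had 14 UMIs (25.1 CPM) and 67 UMIs (28.6 CPM) in amacrine cells, and its interval was wide (-0.65 to 1.14). Dnmt3a had 621 and 520.4 CPM (log2 ratio -0.26, interval -0.43 to -0.08). Mbd2 had 73.4 and 47.0 CPM (log2 ratio -0.64, interval -1.17 to -0.09). Mbd3 rested on 4 and 32 UMIs, with a log2 ratio of 0.93 (-0.56 to 2.89). The intervals of all genes but Dnmt3a and Mbd2 held 0. Past 1.5-fold there was 1 gene higher (Mbd3) and 1 lower (Mbd2) of the 9, against 16.7% of all genes in either direction. Mbd3 reached 10 CPM only in Tet tcKO (13.7 CPM, against 7.16 CPM in Cre−), so its count as higher is tied to that filter. Mbd2 stood at -0.55 with TMM factors and at -0.45 with each gene counted once per nucleus, both short of 1.5-fold. Dnmt1 stood at -0.59 after thinning, past it, from 14 Cre− and 24 Tet tcKO nuclei with a UMI.

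RGCs, the projection neurons of the retina, numbered 567 in Cre− and 704 in Tet tcKO. Cluster 8 held 394 and 29 of them, cluster 15 held 4 and 217, and cluster 31 held 58 and 273. Cluster 2 was shared, with 111 and 185. Over all RGCs, cluster and library therefore cannot be fully told apart. Within cluster 2, Mbd2 had 37.0 CPM (18 UMIs, interval 21.9 to 58.5) in Cre− and 57.2 CPM (46 UMIs, 41.9 to 76.3) in Tet tcKO. Over all RGCs Mbd2 had 33.3 CPM (41 UMIs) and 55.3 CPM (118 UMIs) (log2 ratio 0.73, interval 0.21 to 1.28). After thinning that ratio was 0.27, short of 1.5-fold, from 12 Cre− and 17 Tet tcKO nuclei with a UMI. In nuclei of 1000 to 2000 UMIs it was 1.29. Tdg had 29.3 and 23.0 CPM (log2 ratio -0.35, interval -0.999 to 0.31). Tet2 had 134 and 113 CPM (log2 ratio -0.24, interval -0.53 to 0.05), and Dnmt1 had 56.9 and 42.2 CPM (log2 ratio -0.43, interval -0.90 to 0.04). All but Mbd2 had intervals that held 0. Mbd3 did not reach 10 CPM in either library. Of the 8 genes that did, 1 was 1.5-fold or more higher, against 11.8% of all genes, and 0 were 1.5-fold or more lower, against 10.8%.

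The levels differed between classes within each library, and photoreceptors were set against amacrine cells and RGCs as 1 pool. Mbd3 had 26.1 CPM in Cre− photoreceptors and 7.83 CPM in the Cre− amacrine cells and RGCs (log2 ratio 1.74, interval 0.96 to 2.64). In Tet tcKO it had 28.9 and 11.4 CPM (log2 ratio 1.34, interval 0.90 to 1.81). Mbd3 was thus higher in photoreceptors than in this pool in both libraries. Tet3 was also higher than in the pool, by 0.56 on the log2 scale in Cre− (0.36 to 0.77) and by 0.42 in Tet tcKO (0.29 to 0.56). Mbd1 was higher by 0.47 (0.06 to 0.91) and 0.71 (0.43 to 0.99). The pool leaves out bipolar cells and Müller glia. In Cre− these classes had 190.9 and 193.5 CPM of Tet3, level with photoreceptors (192.1 CPM). In Tet tcKO they had 186.5 and 174.2 CPM, against 186.5 CPM in photoreceptors. Mbd1 in Cre− had 29.5 CPM in bipolar cells and 54.01 CPM (12 UMIs) in Müller glia. Mbd3 in Cre− had 18.7 CPM in bipolar cells (interval 12.9 to 26.3) and 9.00 CPM in Müller glia (2 UMIs, 1.09 to 32.5). Both values lay below that of photoreceptors (26.1 CPM, 22.6 to 30.0), but both intervals overlapped that of photoreceptors. Dnmt3a was lower in photoreceptors than in the pool in both libraries, at -0.35 (-0.46 to -0.25) and -0.12 (-0.20 to -0.04). Tet2 stood below 0 in Cre−, at -0.30 (-0.51 to -0.07), but at 0.39 (0.24 to 0.55) in Tet tcKO. Tdg stood at 0.04 (-0.41 to 0.51) and 1.36 (1.07 to 1.66). Tet1 stood at -0.46 (-0.79 to -0.13) and -0.20 (-0.42 to 0.02), and Mbd2 at -0.27 (-0.62 to 0.11) and -0.79 (-1.06 to -0.51). Past 1.5-fold in Cre− there was 1 of the 9 genes higher in photoreceptors (Mbd3) and 0 lower. Of the 2 sides compared in Cre−, Mbd3 reached 10 CPM only in photoreceptors, so this count is tied to that filter. In Tet tcKO there were 3 higher (Tdg, Mbd1 and Mbd3) and 1 lower (Mbd2). The background was broad. In Cre−, 29.2% of 11053 genes were 1.5-fold or more higher in photoreceptors and 17.4% lower, and in Tet tcKO 40.5% and 15% of 11500 genes. The median gene stood at 0.14 in Cre− and 0.36 in Tet tcKO, so the values of the Tet tcKO library are to be read against a higher reference, close to which Tet2 (0.39) and Tet3 (0.42) lie.

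The order of levels was taken across the annotated classes with 100 nuclei or more. For rods, cones, bipolar cells and Müller glia these names are those of the deposited annotation, which the marker check did not bear out in every cluster. In Tet tcKO, 4 clusters annotated as bipolar (22, 35, 39 and 41) each had the cone marker Cngb3 and no bipolar marker among their leading genes by summed UMIs. Cluster 35 also had the amacrine marker Tfap2a. The Tet tcKO nuclei annotated as bipolar carried 6291 CPM of cone markers beside 3479 CPM of bipolar markers, against 1785 and 5738 CPM in Cre−. Tet1 in Cre− was highest in bipolar cells (79.3 CPM) and amacrine cells (78.8 CPM), followed by Müller glia (58.5 CPM), RGCs (48.0 CPM), rods (42.6 CPM) and cones (36.8 CPM). In Tet tcKO it was highest in amacrine cells (74.7 CPM) and lowest in RGCs (50.2 CPM). No neighbours in either order of Tet1 differed beyond counting error, while the highest and lowest classes did, by 1.11 on the log2 scale for Cre− (0.58 to 1.66) and by 0.57 for Tet tcKO (0.22 to 0.94). Tet2 in Cre− was highest in RGCs (134 CPM), followed by cones (129.9 CPM), and lowest in rods (96.0 CPM). In Tet tcKO it had 152 CPM in the nuclei annotated as cones, 144 CPM in those annotated as bipolar cells, and its lowest level in RGCs (113 CPM). Tet3 had its lowest level in RGCs in both libraries, at 121 and 128 CPM, and its highest in the Cre− nuclei annotated as cones (222 CPM), which carried more rod than cone marker UMIs, and in the Tet tcKO nuclei annotated as bipolar cells and cones (186 CPM each). Here too, and for Tet2, no neighbours differed beyond counting error. The highest class of Tet3 exceeded RGCs by 0.87 for Cre− (0.57 to 1.18) and by 0.55 for Tet tcKO (0.35 to 0.75).

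Tdg in Cre− lay between 24.2 CPM (cones) and 29.3 CPM (rods and RGCs) in 5 classes and at 13.5 CPM in Müller glia, where it had 3 UMIs. In Tet tcKO it had 66.6 CPM in the nuclei annotated as cones and 36.2 CPM in those annotated as bipolar cells. Dnmt3a was highest in amacrine cells (621 CPM) and bipolar cells (583 CPM) of Cre− and in bipolar cells (583 CPM) of Tet tcKO. Its lowest level was in cones of Cre− (389.8 CPM) and in RGCs of Tet tcKO (447 CPM), close to cones there (447 CPM). Dnmt1 lay between 49.5 and 73.6 CPM in the Cre− classes. Mbd2 was highest in amacrine cells of Cre− (73.4 CPM) and in RGCs of Tet tcKO (55.3 CPM). For Dnmt3a and Mbd2 the highest class did not differ from the next beyond counting error in either library. Mbd1 in Tet tcKO had 52.6 CPM in the nuclei annotated as cones. Müller glia rested on 144 and 102 nuclei, and horizontal cells, with 90 and 37 nuclei, were left out of the order.

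The deposited clusters gave a finer view. Over the 14 Cre− rod clusters of 100 nuclei or more, Tdg ranged from 19.2 CPM (cluster 36) through a median of 25.5 CPM to 62.6 CPM (cluster 10). Over the 8 Tet tcKO cone clusters it ranged from 22.7 CPM (cluster 52) through a median of 58.9 CPM to 79.6 CPM (cluster 48). The ranges overlapped, with 3 of the 8 above every Cre− rod cluster and 7 of the 8 above the Cre− median. Tet2 was less mixed, at 43.3 to 132 CPM (clusters 36 and 25) in the Cre− rod clusters and 118 to 172 CPM (clusters 46 and 51) in the Tet tcKO cone clusters, with 7 of 8 above every Cre− rod cluster. For Tet1, 5 of 8 were above every Cre− rod cluster. The ranges were 26.5 to 57.6 CPM (clusters 10 and 9) and 42.5 to 70.4 CPM (clusters 51 and 46). Clusters of a library share that library, so these ranges describe spread within a library and not between animals.

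For the other genes the ranges of these clusters overlapped more. Tet3 ranged from 112 CPM (cluster 25) to 231 CPM (cluster 36) in Cre− rod clusters and from 171 CPM (cluster 46) to 209 CPM (cluster 54) in Tet tcKO cone clusters. Dnmt3a ranged from 317 CPM (cluster 32) to 473 CPM (cluster 26) and from 366 CPM (cluster 52) to 487 CPM (cluster 54). Mbd3 ranged from 16.9 CPM (cluster 19) to 36.8 CPM (cluster 34) and from 15.9 CPM (cluster 52) to 34.9 CPM (cluster 51). Over all clusters of a library, Mbd3 was lowest in RGC cluster 2 of both, at 6.17 and 7.46 CPM. Tet1 was highest in bipolar cluster 7 of Cre− (88.3 CPM) and amacrine cluster 24 of Tet tcKO (91.5 CPM).

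**Figure D4:**
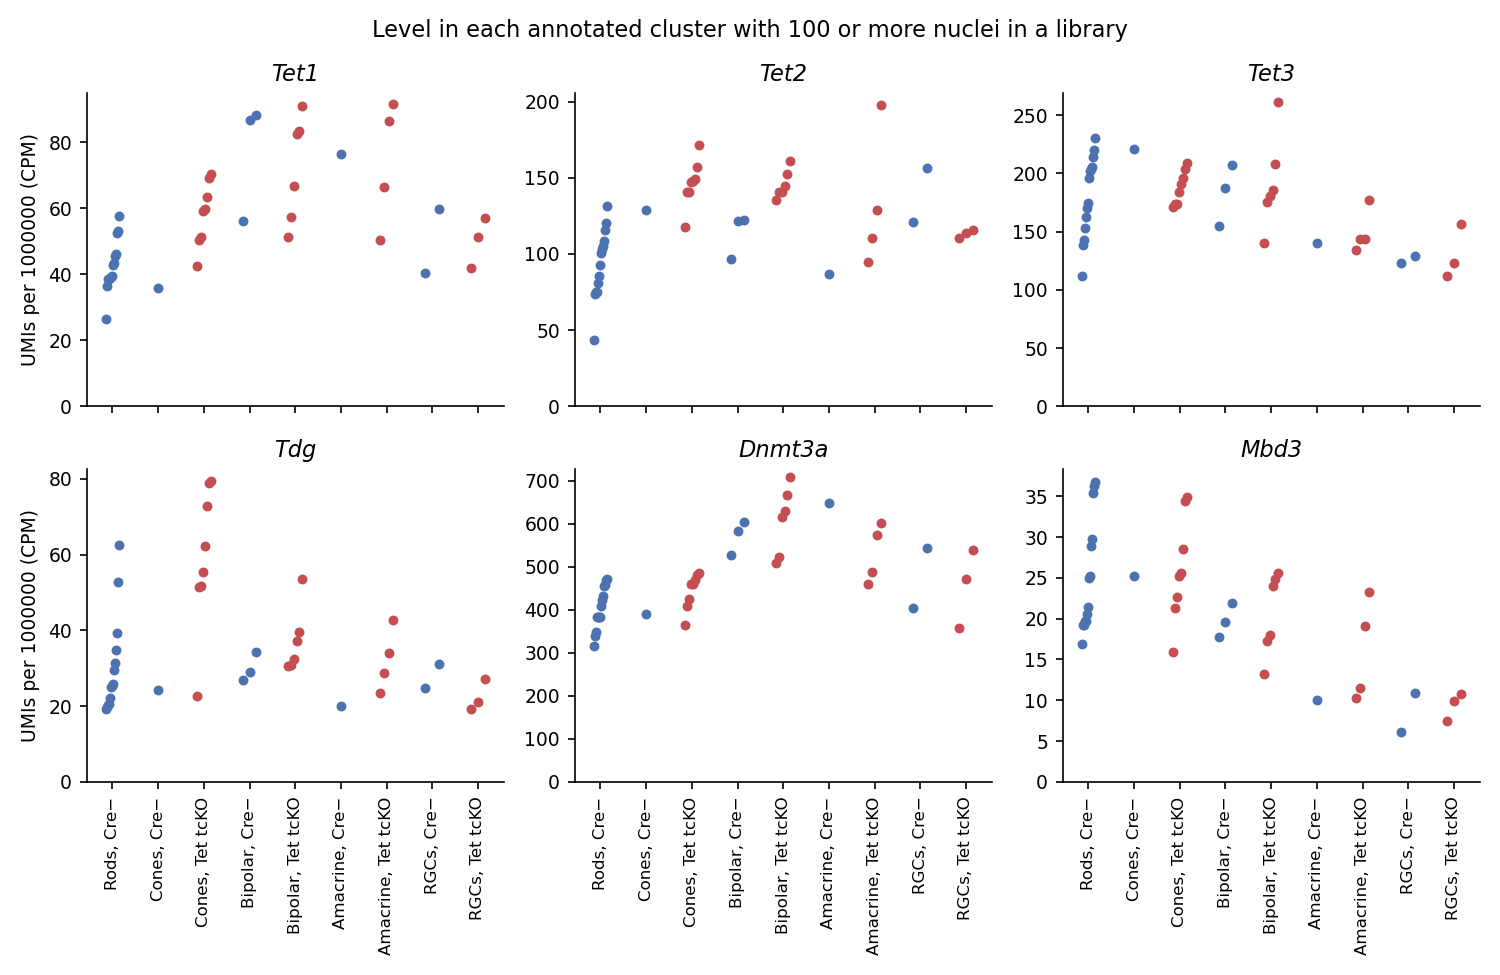
Level of 6 of the genes in each deposited cluster with 100 nuclei or more in a library, grouped by annotated class, for Cre− (blue) and Tet tcKO (red), in CPM. Each point is 1 cluster of 1 library, spread sideways in order of its level. Tdg reaches 79.6 CPM among Tet tcKO cone clusters, and the lowest Mbd3 values are those of RGC cluster 2, at 6.17 and 7.46 CPM.

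The share of nuclei with a UMI was compared after thinning every nucleus to 500 UMIs, so that depth was equal. Tet2 was found in 5.10% of thinned Cre− nuclei and 6.92% of thinned Tet tcKO nuclei. Tet1 was found in 1.97% and 3.27%, and Tdg in 1.43% and 2.35%. Tet3 was found in 8.63% and 8.31%, and Dnmt3a in 20.4% and 22.8%. Without thinning the shares were 7.27% and 13.3% for Tet1, 14.3% and 28.1% for Tet2, 23.0% and 33.3% for Tet3, and 4.19% and 10.5% for Tdg, and they carry the difference in depth. No class here is known to lack these genes, so the level of free RNA behind a UMI of theirs was not measured. Rod and cone marker levels in amacrine cells and RGCs are given above. Before thinning, 0.816% of Cre− nuclei and 2.34% of Tet tcKO nuclei held UMIs of all 3 Tet genes, shares that carry the difference in depth too.

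Genes that work with the writers, readers and erasers were taken as 5 lists. Of 10 TET cofactors and partners, all passed 10 CPM over all nuclei, 6 were 1.5-fold or more higher in Tet tcKO and 0 lower, and the median log2 ratio was 0.65. Ogt, the O-GlcNAc transferase that binds TET proteins, had 253 CPM in Cre− against 544 CPM in Tet tcKO (log2 ratio 1.10, interval 1.04 to 1.16). Idh1, which makes the 2-oxoglutarate that TET enzymes need, had 11.9 and 21.4 CPM (log2 ratio 0.85, interval 0.56 to 1.14). D2hgdh, which removes the TET inhibitor D-2-hydroxyglutarate, stood at -0.03, and Qser1, which guards bivalent promoters with TET1, at -0.04. In photoreceptors 7 of the 10 were 1.5-fold or more higher, with a median of 0.88. All 5 lists were chosen with earlier results of these data known, and their counts are descriptions. They are to be read against the shares of all genes, 12.9% higher and 6.93% lower over all nuclei and 22.9% and 7.1% in photoreceptors.

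Of 9 writer cofactors, 5 passed, with 2 higher and 0 lower past 1.5-fold (against 12.9% and 6.93% of all genes) and a median of 0.36. Mat2a, the enzyme that makes the methyl donor S-adenosylmethionine, had 142 CPM in Cre− against 315 CPM in Tet tcKO (log2 ratio 1.15, interval 1.07 to 1.23). Mat2b, its regulatory subunit, had a log2 ratio of 0.67 (0.33 to 1.01). It reached 10 CPM only in Tet tcKO (14.6 CPM, against 9.21 CPM in Cre−), so its count as higher is tied to that filter. Usp7, a deubiquitinase that binds DNMT1, stood at -0.18 and Hells, a helicase of the SNF2 family, at -0.21. Of 10 other readers, 9 passed, with 1 higher and 1 lower (against the same shares) and a median of 0.16. Kdm2b, a CXXC protein that binds unmethylated CpG, stood at 0.37, Mbd4 at -0.49 and Zbtb38 at -0.60.

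All 12 NuRD subunits passed, with 1 higher and 0 lower (against 12.9% and 6.93% of all genes) and a median of 0.19. The histone-binding subunits Rbbp7 and Rbbp4 stood at 0.64 and 0.51 on the log2 scale, the remodeller Chd5 at -0.28 and Mta2 at -0.31. Of 15 genes in the base excision repair list, 9 passed, with 1 higher and 1 lower (against the same shares) and a median of -0.01. The list also held Gadd45 genes, whose proteins the paper names as reported recruiters of TET enzymes with a disputed role. Smug1, a uracil glycosylase that also acts on 5-hydroxymethyluracil, had 113 CPM in Cre− against 286 CPM in Tet tcKO (log2 ratio 1.34, interval 1.26 to 1.43), above that of Tdg. Polb, the repair polymerase, stood at 0.12, Gadd45a at -0.24 and Neil2 at -0.63. Several of these genes overlap a gene on the opposite strand, among them Mat2a with Ggcx, Rbbp7 with Txlng, Kdm2b with Rnf34, Chd5 with Kcnab2 and Gadd45a with E230016M11Rik.

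**Figure D5:**
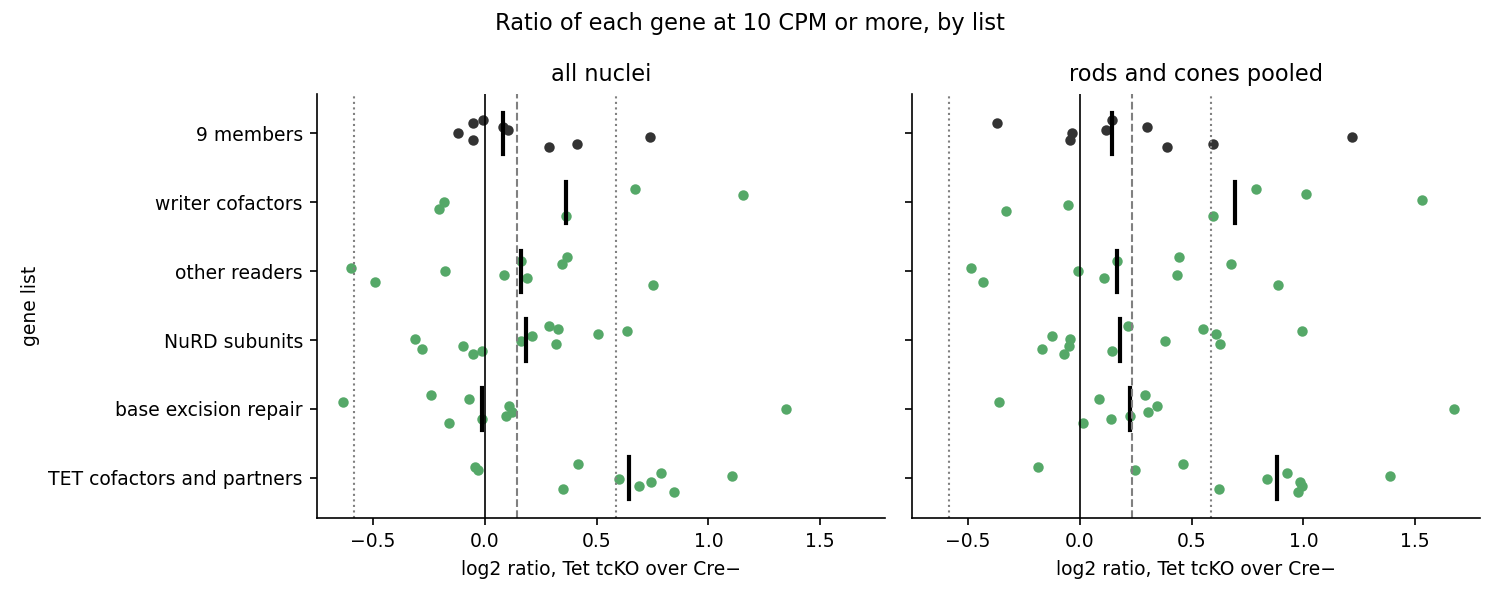
Log2 ratio of Tet tcKO over Cre− for the 9 genes (black) and for 5 lists of related genes (green) at 10 CPM or more, over all nuclei and over photoreceptors. Each point is a gene, thick bars are list medians, the dashed line is the median of all genes and dotted lines mark 1.5-fold. The TET cofactors and partners have medians of 0.65 and 0.88.

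Likeness of pattern was measured by Pearson's correlation of log2(CPM + 1) over 11 profiles, each a class of 100 nuclei or more in 1 library, among 4314 genes at a mean of 50 CPM or more. Profiles of a library share depth and preparation, so these values are descriptions. The genes most like Tet1 were Pnn (0.92), Dnmt3a (0.91) and Ate1 (0.90). Those most like Tet2 were Sptlc2 (0.81), Gm10419 (0.80) and Zfand5 (0.80), and those most like Tet3 were Tnpo1 (0.98), Ankrd33b (0.97) and Zmym5 (0.97). Between the 9 genes, Tet1 and Dnmt3a were the most alike pair, and Tet1 and Mbd1 the least (-0.58).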

How the data were processed

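Nuclei of whole retina were sequenced by the authors with the PIPseq kit, and reads were processed with pipseeker 3.3.0 against GRCm39 per the labels. Per the study's methods, ambient RNA was removed with CellBender 0.3.0 and filters kept nuclei above 500 transcripts, below 10000, and with a mitochondrial share below 20%. The deposited matrices hold whole-number counts of UMIs per gene and nucleus. The mitochondrial percent of each nucleus was deposited by the authors and entered no level. The annotation release and the counting of introns and strand were not given in the sources used here. Of the gene table, 2 per-sample columns hold averages by the authors and were not used. Doublets were not called here, and whether they had been removed was not given in the sources used here.

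UMIs were summed per library and class and divided by the total (CPM). Ratios carry conditional binomial intervals, levels Poisson intervals and shares Clopper-Pearson intervals, all exact at 95%. In a ratio, 3 counts stood in for a count of 0. With 1 library per genotype no p-value is given. Genes that reached 10 CPM in one or both libraries formed the background, and no gene was dropped from the 9 for low values unless stated. Classes are the authors' annotation, checked with 12 marker lists among 10 leading genes per cluster, ranked once by UMI sums and once by the number of nuclei with a UMI. Scripts were tested on simulated data. Python 3.11.15, numpy 2.4.6, scipy 1.17.1, pandas 2.3.3 and edgeR 4.0.16 (TMM factors only, in R 4.3.3) were used, with GENCODE M39 for positions.

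The 9 genes and all lists were chosen with earlier results of these data known. Named were the 9 genes, the 2 highest and 2 lowest ratios over all nuclei of each list, the 3 genes most like each Tet gene, and the highest and lowest cluster of a gene. Of the genes so named, 1 is not reported here. Uqcc6 and the other overlapping genes were named after their values were seen. Alternatives were TMM and median-of-ratios scaling, totals without mitochondrial genes, nuclei of 1000 UMIs or more, counting each gene once per nucleus, thinning to 500 UMIs, leaving out the nucleus with most UMIs of a gene, Cre− class shares in both libraries, and other minimum levels and folds. Nuclei of 1000 to 2000 UMIs, and photoreceptors without clusters 25, 32 and 40, were alternatives chosen after seeing the data.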

Additional observations from a re-analysis of the deposited data

Results flagged for a closer look

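The log2 ratio of Tet tcKO over Cre− lay on opposite sides of 0 in different classes for Dnmt3a and Mbd2, with counting intervals that held 0 in neither class. Dnmt3a stood at 0.12 in photoreceptors (rods and cones pooled) and at -0.26 in amacrine cells, and the first value turned to -0.0752 with TMM factors. The median gene lay at 0.23 in photoreceptors and at -0.0068 in amacrine cells. Measured from it, Dnmt3a was lower in both, at -0.12 and -0.25. Mbd2 stood at 0.73 in RGCs, at -0.37 in photoreceptors and at -0.64 in amacrine cells. Measured from the median gene of each class, Mbd2 stood at 0.71, -0.60 and -0.64. The difference between the classes was not tested, since each genotype had 1 library. The value of Mbd2 in amacrine cells rested on 41 Cre− and 110 Tet tcKO UMIs, and that in RGCs on 41 and 118.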

How the results depend on the processing

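No paired analysis was possible because each genotype had 1 library. Of 306 log2 ratios recomputed under alternatives, 274 stayed within the counting interval of the reported value, 32 moved outside it, 268 kept their sign, and 0 of those past 1.5-fold changed sign. The cause of each move was not tested unless the scaling factor itself sets it. Over all nuclei, TMM factors gave log2 ratios of 0.31 for Tet2, -0.16 for Tet3 and -5.93e-05 for Dnmt3a, and median-of-ratios factors 0.30, -0.16 and -0.0032. Dnmt3a was 0.0484 without mitochondrial genes in the total, 0.0437 in nuclei of 1000 UMIs or more, -0.11 with each gene counted once per nucleus, 0.22 after thinning and 0.0414 at Cre− class shares, where Tdg was 0.94. Thinning gave 0.73 for Tet1 and 0.13 for Mbd2 over all nuclei, and 2 of the 9 genes past 1.5-fold in place of 1. Every thinned ratio came from a single random draw and fewer UMIs, so it carries more sampling error than the full counts. In photoreceptors, TMM gave 0.40 for Tet2, -0.23 for Tet3 and -0.0752 for Dnmt3a, and median-of-ratios 0.42, -0.21 and -0.0535. Counting once per nucleus gave -0.17 for Dnmt3a there. Thinning gave 1.03 for Tet1, -0.0454 for Mbd1 and -0.0496 for Mbd2. Nuclei of 1000 to 2000 UMIs gave 0.0417 for Dnmt3a and -0.0569 for Mbd1. In amacrine cells thinning gave -0.59 for Dnmt1 and the range of 1000 to 2000 UMIs 0.51 for Tet1. In RGCs counting once per nucleus gave -0.28 for Dnmt3a, thinning 0.76 for Tet3, and the range of 1000 to 2000 UMIs 0.68 for Tet3 and 1.29 for Mbd2.

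Genes past 1.5-fold over all nuclei numbered 2214 (1441 higher, 773 lower) at 10 CPM, 4959 at 1 CPM, 882 at 50 CPM and 632 past 2-fold. The split was 1008 higher and 1056 lower with TMM factors and 977 and 1057 with median-of-ratios factors. In photoreceptors it was 2601 and 808, then 1471 and 1373, and 1526 and 1288. Without thinning, shares of nuclei with a UMI in Cre− and Tet tcKO were 7.27% and 13.3% (Tet1), 14.3% and 28.1% (Tet2), 23.0% and 33.3% (Tet3), 4.19% and 10.5% (Tdg), 8.54% and 11.7% (Dnmt1), 46.7% and 64.5% (Dnmt3a), 5.78% and 9.28% (Mbd1), 5.57% and 8.29% (Mbd2), and 3.29% and 5.08% (Mbd3). Of the 3 genes most like each Tet gene, Spearman's correlation shared 2 for Tet1, 0 for Tet2 and 0 for Tet3, and a minimum of 20 CPM shared 1, 0 and 2. Mbd3 rested on 4 Cre− UMIs in amacrine cells, and on 2 Cre− and 1 Tet tcKO UMIs in Müller glia.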

Other observations

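The deposited gene table counts more nuclei with each of the 9 genes than the deposited matrices hold. For Tdg the table gives 1153 nuclei and the matrices 1017, and for Dnmt3a 8884 and 7799. The reason was not given in the sources used here.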
